A study of Homo sapiens with 6 samples.

Results

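Interferon-stimulated effector genes are genes induced once interferon has bound its receptors, and some of their products act at the cell surface or are secreted. Type I and type III interferons signal through the kinases JAK1 and TYK2 to STAT proteins such as STAT2, which bind DNA together with IRF9 at a short element in the promoters of these genes. Their products cut or sequester viral RNA, block the entry of virus particles, attach the ubiquitin-like protein ISG15 to other proteins, or feed back on the pathway. Many of them are kept at a low level in unstimulated epithelial cells, and IRF1, IRF7, STAT2 and IRF9 are both regulators and targets of the pathway.

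The 51 members were given as a list of symbols, with RNA sensors, the OAS family, TRIM genes and MHC class I genes left out, and all 51 were among the 40173 genes of the count table. They were measured by RNA-Seq in human cells labelled A549, a lung adenocarcinoma line, in a comparison that asked how mRNA profiles change after FAM83H-AS1, a long non-coding RNA, is silenced. The control group held 3 libraries of cells transfected with a negative control siRNA, and the silenced group held 3 libraries of cells transfected with an siRNA against FAM83H-AS1, each harvested a day after transfection. Both groups therefore carried transfected siRNA. No untransfected cells and no cells given interferon were analysed here, and the labels name a single line and no other agent. The groups differ in the siRNA they received as well as in FAM83H-AS1. An effect of the loss of FAM83H-AS1 and any other effect of the siRNA against it therefore cannot be told apart. The labels do not say whether the libraries of a group came from separate cultures, so that the p-values measure the spread between these libraries, which may be technical.

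Library totals ranged from 9738291 to 17742643 counts. FAM83H-AS1 was at 14.5, 15.98 and 17.3 CPM (counts per 1000000, scaled to the TMM-normalized library size) in control replicates 1, 2 and 3 and at 4.59, 4.44 and 5.57 CPM in silenced replicates 1, 2 and 3, a log2 fold change of -1.70 (SE 0.148, adjusted p = 7.99e-05). Of 7 markers chosen for A549, KRT8, KRT18 and AKR1C1 were at 71.7 CPM or more in every library, while ALDH1A1 had 0 counts in 5 libraries and 2 counts in silenced replicate 3, and AKR1B10, KRT19 and EPCAM were at no more than 4.49 CPM. CDKN2A and MTAP, which A549 is known to have lost, were at 48.2 to 74.8 CPM and 32.6 to 39.2 CPM, genes that were looked at after other values had been seen. The identity of the line was not tested further. The summed level of the A549 markers, nearly all of it KRT8 and KRT18, was lower in the silenced group (2687 to 2736 CPM) than in the control group (2999 to 3580 CPM). KRT18 was lower by the test (log2 fold change -0.43, adjusted p = 0.00266) and AKR1B10 higher (log2 fold change 1.31, adjusted p = 0.0135). KRT8, KRT19, EPCAM and AKR1C1 did not pass it. Of 6 leukocyte markers, 4 had no more than 3 counts in any library, and their summed level was 1.04 to 2.16 CPM in control and 1.56 to 2.38 CPM in silenced libraries. The summed level of 5 fibroblast markers, nearly all of it COL1A1, was 26.3 to 29.8 CPM and 29.3 to 38.4 CPM, and that of 4 endothelial markers 4.42 to 6.39 CPM and 3.79 to 4.16 CPM. What part these differences have in the values of the members was not tested.

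After silencing, 18 members rose and 2 fell. ISG20, MX2, IFI44, IFIT2 and ISG15 rose more than 2-fold, and IFIT1, IFIT3, DDX60, DDX60L, SAMD9 and SAMD9L rose by 0.72 to 0.998 on the log2 scale. The members that fell were IFITM1 and IFITM3, which encode membrane proteins that restrict virus entry. Most of the members rose by less than 2-fold or did not pass the test, among them MX1, IFIT5, BST2 and IRF7. In RNA from whole cultures, more cells that express a gene and more RNA per cell cannot be told apart.

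In detail, 42 of the 51 members had enough counts to be tested (at least 0.906 CPM, 10 counts at the median library total, in 3 libraries). Changes were tested with edgeR's quasi-likelihood test over 15250 genes, with Benjamini-Hochberg adjustment over all of them, and a gene was called where it also changed more than 2-fold. Of the 42 tested members, 18 (42.9%) were higher at an adjusted p under 0.05, beside 8.75% of all tested genes, and 2 (4.76%) were lower, beside 8.27% of all tested genes. The 5 members called higher made up 11.9% of those tested, beside 1.14% of all tested genes. No member was called lower, beside 0.997% of all tested genes, and by edgeR none was lower more than 2-fold even at an unadjusted p under 0.05, nor was any by DESeq2. In 30 of the 42 members (71.4%) the CPM of the groups did not overlap, 26 higher and 4 lower, beside 36.6% of all tested genes. The median log2 fold change of the tested members was 0.40, with 36 above 0 and 6 below, while that of all tested genes was -0.00067. In the silenced libraries taken singly, the median over members of the log2 ratio to the control mean was 0.33, 0.42 and 0.37 in replicates 1, 2 and 3. Of the 18 members that rose, 11 were highest in silenced replicate 2 and 10 were lowest in silenced replicate 3. The same counts over all tested genes are not given here, so a property of these libraries was not told apart. MX2, GBP2 and IFI27 reached the minimum of the filter in every silenced library but not in every control library. Among the 39 members that reached it in every library, 17 rose, 2 fell and 4 were called higher, with a median log2 fold change of 0.37. Since the members were chosen with earlier results of these data known, these counts describe them and are no independent evidence of their direction.

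**Figure D1:**
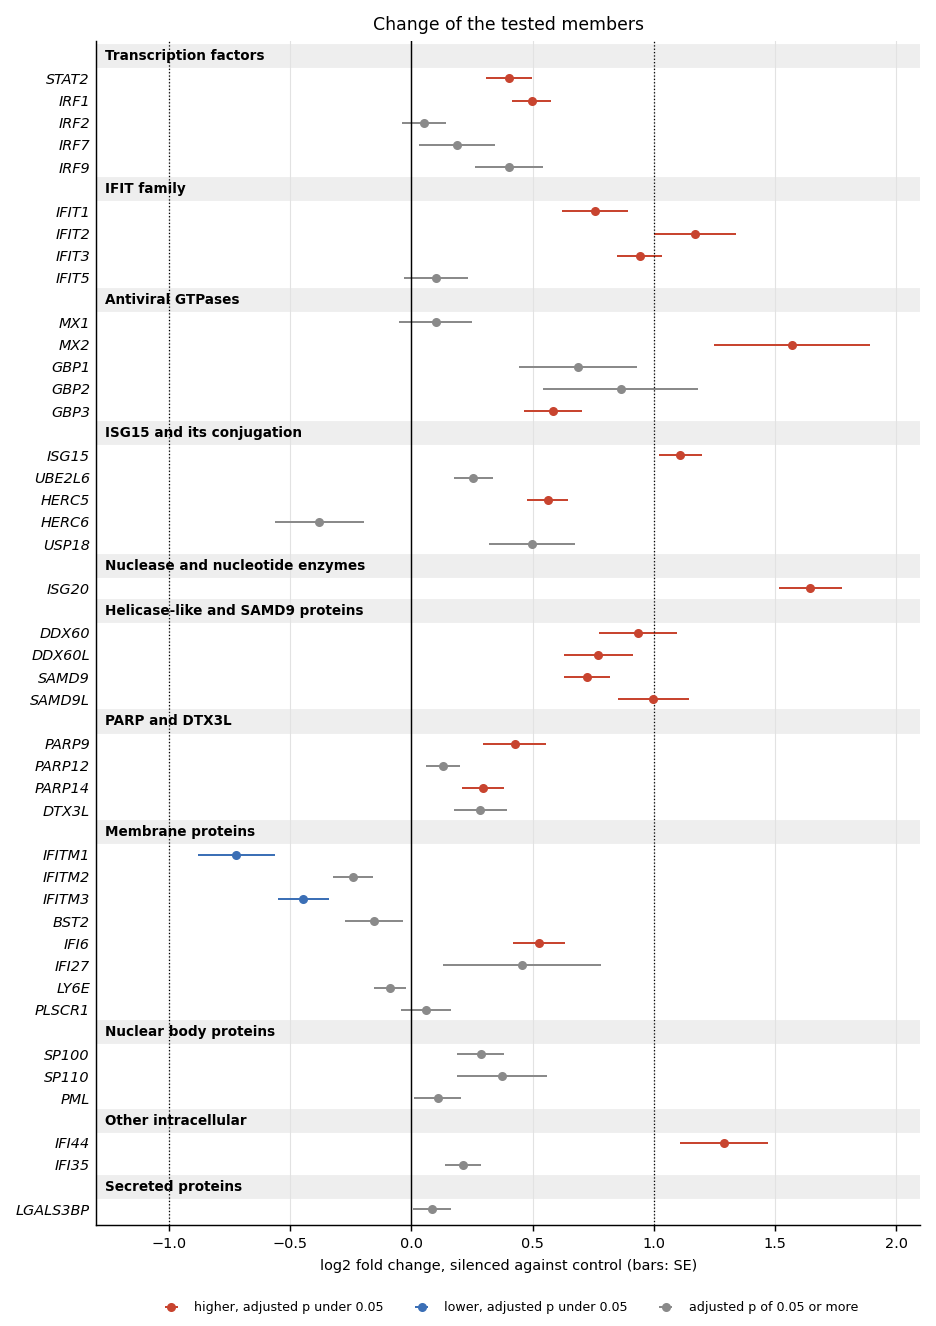
Log2 fold change of the 42 tested members, silenced against control, grouped by role, with bars for the SE and dotted lines at a 2-fold change. The 5 members to the right of the 2-fold line are IFIT2, MX2, ISG15, ISG20 and IFI44, and only IFITM1 and IFITM3 are lower at an adjusted p under 0.05.

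The promoters of members that rose, fell or did not pass the test are shown here because the element bound by STAT2 and IRF9, the interferon-stimulated response element, is what many of the members are known to share. RefSeq promoters (GRCh38.p14, 250 bases before to 50 after each annotated start) were at hand for 41 of the 51 members. The element was searched as GAAANNGAAA on both strands. It lay in at least 1 promoter of 29 of these 41 members (70.7%), beside 4.38% of the 27305 genes with a promoter and 3.78% of the tested genes among them, and 3.57% of all 35116 windows held it. Windows from 160 bases before to 10 after the start follow, in lower case on the strand of the gene with the element in capitals. Where the element lies on the other strand its letters read as TTTC, any 2 bases, TTTC, and overlapping matches form 1 run. ISG20, ISG15 and IFI44 are the members called higher whose promoters were at hand (those of IFIT2 and MX2 were not), and IFIT5 did not pass the test. IFIT3, IFIT1, IFITM1 and IFITM3 were added after their values had been seen, to show members that rose and members that fell.
ISG20 (chr15:88638856-88639025, plus strand): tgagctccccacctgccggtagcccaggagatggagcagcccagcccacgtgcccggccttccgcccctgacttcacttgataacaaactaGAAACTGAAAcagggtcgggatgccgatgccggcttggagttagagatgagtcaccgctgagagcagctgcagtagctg
ISG15 (chr1:1013337-1013506, plus strand): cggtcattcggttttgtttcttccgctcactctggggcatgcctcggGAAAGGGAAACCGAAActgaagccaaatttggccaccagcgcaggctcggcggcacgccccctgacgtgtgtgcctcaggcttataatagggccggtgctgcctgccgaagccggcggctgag
IFI44 (chr1:78649629-78649798, plus strand): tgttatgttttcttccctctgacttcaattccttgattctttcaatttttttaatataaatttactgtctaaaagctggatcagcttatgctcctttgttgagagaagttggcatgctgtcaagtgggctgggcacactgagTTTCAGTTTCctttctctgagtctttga
IFIT3 (chr10:89327837-89328006, plus strand): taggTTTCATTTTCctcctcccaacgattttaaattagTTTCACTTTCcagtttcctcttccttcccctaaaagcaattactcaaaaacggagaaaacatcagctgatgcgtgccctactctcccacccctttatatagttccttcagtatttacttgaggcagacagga
IFIT1 (chr10:89392463-89392632, plus strand): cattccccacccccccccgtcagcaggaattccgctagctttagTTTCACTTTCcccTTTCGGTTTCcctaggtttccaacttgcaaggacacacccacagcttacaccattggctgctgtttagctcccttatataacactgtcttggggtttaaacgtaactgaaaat
IFIT5 (chr10:89414408-89414577, plus strand): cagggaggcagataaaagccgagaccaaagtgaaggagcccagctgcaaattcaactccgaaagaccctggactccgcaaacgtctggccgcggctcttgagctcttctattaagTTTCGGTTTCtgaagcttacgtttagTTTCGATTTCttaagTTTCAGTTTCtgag
IFITM1 (chr11:313880-314049, plus strand): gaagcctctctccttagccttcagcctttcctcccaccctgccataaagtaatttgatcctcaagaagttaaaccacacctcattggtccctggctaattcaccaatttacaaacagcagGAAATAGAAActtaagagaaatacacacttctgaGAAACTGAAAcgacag
IFITM3 (chr11:320851-321020, minus strand): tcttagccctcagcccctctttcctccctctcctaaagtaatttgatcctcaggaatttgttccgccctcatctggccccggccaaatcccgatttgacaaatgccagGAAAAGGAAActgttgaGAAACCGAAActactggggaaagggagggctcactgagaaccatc

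The element starts 69 bases before the start of ISG20, 113 and 107 bases before that of ISG15, and 18 bases before that of IFI44. IFIT1 holds it at 116 and 103 bases and IFIT3 at 156 and 122 bases before the start, and IFIT5, which did not pass the test, holds 3 copies of which the nearest starts 4 bases before it. The genes that fell hold it too, from 40 and 6 bases before the start in IFITM1 and from 52 and 35 bases before it in IFITM3. Of the 24 tested members with the element, 13 rose, 2 fell and 9 did not pass the test, with a median log2 fold change of 0.49. Of the 9 tested members with a promoter in which these letters were not found, 3 rose (STAT2, IRF1 and SAMD9L), with a median of 0.37. Among the 336 tested genes outside the list that hold the element, 45 (13.4%) rose, and the median log2 fold change was 0.04. The share of all tested genes that rose, with or without a promoter at hand, was 8.75%. Genes outside the list can include the RNA sensors, OAS family, TRIM genes and MHC class I genes left out of it. The gamma-activated site was searched as TTCNNNGAA on both strands. Its letters lay in promoters of 14 of the 41 members (34.1%), beside 9.38% of all genes with a promoter, and of the 12 tested members that hold it, 4 rose and 1 fell, with a median log2 fold change of 0.33. Of the 21 tested members with a promoter in which its letters were not found, 12 rose, with a median of 0.53. A match of letters is a description of the window and does not show binding.

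ISG20 had the largest log2 fold change of the 42 tested members. It encodes an exonuclease that degrades RNA. It was at 14.2, 16.6 and 13.8 CPM in control replicates 1, 2 and 3 and at 46.2, 54.2 and 39.2 CPM in silenced replicates 1, 2 and 3. All silenced libraries were far above all control libraries, with a log2 fold change of 1.65 (SE 0.130, adjusted p = 3.80e-05), or 3.13-fold. The other members of its group were below the filter. RSAD2, the radical SAM enzyme viperin, had 1, 0 and 1 counts in the control and 0 in every silenced library, and its neighbour CMPK2, a nucleotide kinase, had 0 counts in all 6. A count of 0 allows a level of up to 0.169 to 0.308 CPM across these libraries (3 counts of the library total, for counting error only).

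The IFIT proteins bind foreign RNA and the translation machinery, and 3 of the 4 IFIT genes measured rose. IFIT2 was at 9.46, 16.5 and 12.3 CPM in control and 31.2, 30.1 and 25.2 CPM in silenced replicates 1, 2 and 3. The control libraries varied more than the silenced ones relative to their mean, but the groups did not overlap, and IFIT2 rose 2.25-fold (log2 fold change 1.17, SE 0.169, adjusted p = 0.00153). IFIT3, which binds IFIT1 and stabilizes it, had the highest level of the family in CPM, at 17.2, 19.8 and 18.03 CPM in control and 34.4, 34.9 and 36.4 CPM in silenced libraries. Its groups were well apart and its libraries close to each other, and it rose by 0.94 on the log2 scale (SE 0.0928, adjusted p = 1.68e-04). IFIT1, which binds RNA without a complete cap, went from 8.15 ± 0.781 (SD, n = 3) to 13.7 ± 1.13 (SD, n = 3) CPM (log2 fold change 0.76, SE 0.135, adjusted p = 0.00449). IFIT5, which lies beside IFIT1 in the same cluster on chromosome 10, had overlapping groups with a log2 fold change of 0.10 (SE 0.131, adjusted p = 0.635). The order along the cluster is IFIT2, IFIT3, IFIT1 and IFIT5, and the log2 fold changes fell along it from 1.17 to 0.10. Differences between neighbours were not tested.

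Of the 5 antiviral GTPases, which assemble on viral structures or vacuoles, MX2 and GBP3 rose. MX2, a restriction factor of retroviruses, had few counts: 1.13, 0.518 and 1.01 CPM in control and 2.73, 2.22 and 2.97 CPM in silenced replicates 1, 2 and 3. Every silenced library was above every control library, with control replicate 2 lowest, and MX2 rose 2.97-fold (log2 fold change 1.57, SE 0.323, adjusted p = 0.00892). MX1, which blocks influenza virus and is the neighbour of MX2 on chromosome 21, was at 7.94 ± 0.0864 (SD, n = 3) and 8.52 ± 1.13 (SD, n = 3) CPM with overlapping groups (log2 fold change 0.10, SE 0.151, adjusted p = 0.692). GBP3 had the highest level of the group, at 15.8, 17.1 and 20.6 CPM in control and 28.6, 28.1 and 24.2 CPM in silenced libraries, which did not overlap (log2 fold change 0.58, SE 0.121, adjusted p = 0.00915). Its neighbours GBP1 and GBP2 also had groups that did not overlap but did not pass the test, with log2 fold changes of 0.69 (SE 0.244, adjusted p = 0.0762) and 0.86 (SE 0.320, adjusted p = 0.0879). The SEs of MX2, GBP1 and GBP2, all under 6 CPM in every library, were larger than that of GBP3.

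**Figure D2:**
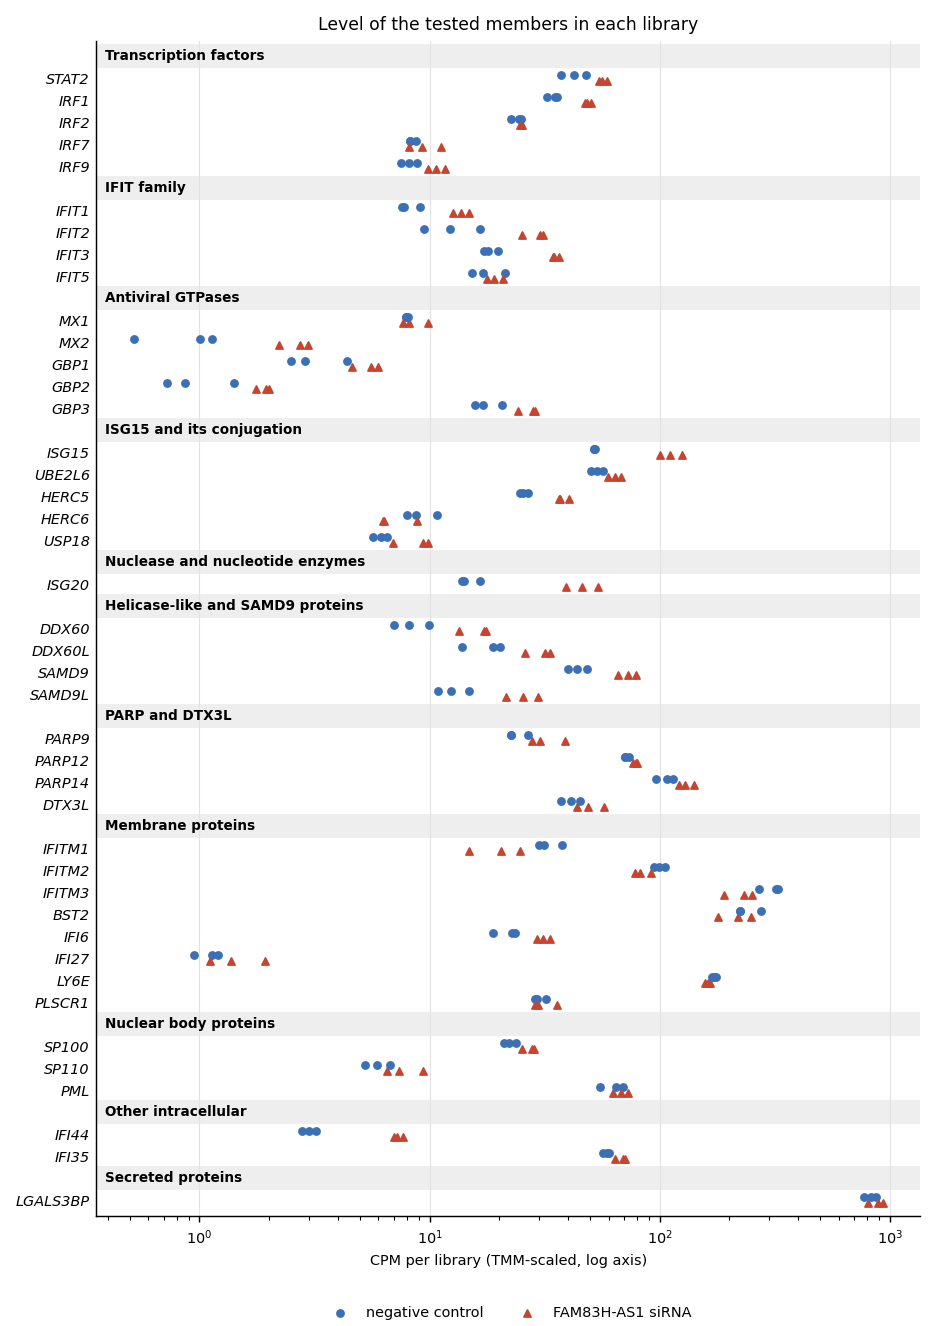
CPM of the 42 tested members in each of the 3 control libraries (circles) and 3 silenced libraries (triangles), on a log axis and grouped by role. The silenced libraries of ISG20, ISG15, IFI44, IFIT2, IFIT3 and SAMD9 lie above all their control libraries, those of IFITM1 and IFITM3 lie below, and those of MX1, IFIT5, BST2 and PLSCR1 overlap.

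Of the 5 genes for ISG15 and the enzymes that attach it to proteins or remove it, ISG15 and HERC5 rose. ISG15 was at 52.6, 51.6 and 51.7 CPM in control and 111, 100.4 and 125 CPM in silenced replicates 1, 2 and 3. The control libraries were nearly equal, every silenced library was well above them, and ISG15 rose 2.16-fold (log2 fold change 1.11, SE 0.0891, adjusted p = 4.30e-05). HERC5, its main ligase in human cells, rose from 25.7 ± 1.05 (SD, n = 3) to 37.9 ± 2.02 (SD, n = 3) CPM (log2 fold change 0.56, SE 0.0864, adjusted p = 0.00204). HERC6, a related ligase and the neighbour of HERC5 on chromosome 4, had overlapping groups and a log2 fold change of -0.38 (SE 0.184, adjusted p = 0.181). UBE2L6, the conjugating enzyme, was at 53.5 ± 3.29 (SD, n = 3) and 63.96 ± 4.08 (SD, n = 3) CPM, with groups that did not overlap and a log2 fold change of 0.26 (SE 0.0818) that did not pass the threshold (adjusted p = 0.0534), though it passed in 5 of the 13 other settings. USP18, which removes ISG15 and also blocks signalling at the receptor, had a log2 fold change of 0.50 (SE 0.177, adjusted p = 0.0766).

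All 4 members of the group of helicase-like and SAMD9 proteins rose, with no overlap of the groups. SAMD9, which restricts poxviruses, had the highest level among them, at 43.6, 48.5 and 39.9 CPM in control and 72.8, 78.6 and 66.2 CPM in silenced libraries (log2 fold change 0.72, SE 0.0952, adjusted p = 9.33e-04). Its neighbour and paralog SAMD9L, which can repress translation, rose from 12.7 ± 1.997 (SD, n = 3) to 25.5 ± 4.07 (SD, n = 3) CPM, a change of 1.998-fold that was just short of the fold needed for a call (log2 fold change 0.998, SE 0.146, adjusted p = 0.00162). DDX60, a helicase-like protein described in the sensing of viral RNA, rose from 8.35 ± 1.48 (SD, n = 3) to 16.1 ± 2.30 (SD, n = 3) CPM (log2 fold change 0.93, SE 0.160, adjusted p = 0.00368). DDX60L, its neighbour and paralog, rose from 17.6 ± 3.31 (SD, n = 3) to 30.3 ± 3.97 (SD, n = 3) CPM (log2 fold change 0.77, SE 0.144, adjusted p = 0.00555). How reads that match more than 1 gene were counted is not given in the sources used here, so that the split of reads within DDX60 and DDX60L, SAMD9 and SAMD9L, the IFITM genes and the GBP genes is uncertain.

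Among the intracellular proteins with other or unknown activity, IFI44 rose and IFI35 did not pass the test. IFI44, a protein of the cytoplasm, was at 2.98, 3.20 and 2.78 CPM in control and 7.23, 7.68 and 6.99 CPM in silenced replicates 1, 2 and 3. Replicates of each group lay close together, and IFI44 rose 2.45-fold (log2 fold change 1.29, SE 0.182, adjusted p = 0.00133). IFI35 had groups that did not overlap and a log2 fold change of 0.21 (SE 0.0754, adjusted p = 0.0746). IFI44L, the neighbour and paralog of IFI44, had 0 to 3 counts per library, and EPSTI1 and XAF1, which promotes apoptosis, had at most 1 count in any library.

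The PARP group holds ADP-ribosyltransferases and DTX3L, the ubiquitin ligase that pairs with PARP9, and its changes were small. PARP14 had the highest level, at 96.6, 108 and 114 CPM in control and 121, 141 and 129 CPM in silenced libraries, which did not overlap (log2 fold change 0.29, SE 0.0870, adjusted p = 0.0400). PARP9 rose from 23.99 ± 2.49 (SD, n = 3) to 32.3 ± 5.74 (SD, n = 3) CPM (log2 fold change 0.43, SE 0.131, adjusted p = 0.0460). PARP14 no longer passed the test without any of control replicates 1 and 2 and silenced replicates 1, 2 and 3, left out in turn (adjusted p 0.0644 to 0.119). PARP9 no longer passed without any of the 3 control libraries or silenced replicates 1 and 2 (adjusted p 0.0519 to 0.134), nor with counts thinned to the smallest library (adjusted p = 0.0713). DTX3L, which lies next to PARP9 on chromosome 3, had a log2 fold change of 0.28 (SE 0.109, adjusted p = 0.0983), and PARP12 of 0.13 (SE 0.0706, adjusted p = 0.233). In the nuclear body group, SP100, SP110 and PML had log2 fold changes of 0.29, 0.37 and 0.11 with adjusted p-values of 0.0656, 0.189 and 0.477. None of the 3 passed the test by edgeR with TMM normalization of the full counts, or by DESeq2. Of these, 1 gene, SP100, had an unadjusted p under 0.05. It passed in 2 of the 13 other settings (library size only and counts thinned to the smallest library).

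Of the 8 membrane proteins tested, 2 fell, 1 rose and 5 did not pass the test, and 5 of the 8 had a log2 fold change below 0. IFITM3, which is found on endosomes and blocks the fusion of enveloped viruses, had the highest level of the group, at 321, 271 and 328 CPM in control and 232, 191 and 251 CPM in silenced replicates 1, 2 and 3. Every silenced library was below every control library, with silenced replicate 2 lowest, and IFITM3 fell to 73.4% of the control level (log2 fold change -0.45, SE 0.106, adjusted p = 0.0165). Without silenced replicate 1 it no longer passed the test, at a log2 fold change of -0.47 (adjusted p = 0.0531). IFITM1, which sits mainly at the cell surface, was at 37.7, 31.5 and 30.03 CPM in control and 24.7, 14.9 and 20.4 CPM in silenced libraries. The silenced libraries were again all below the control libraries, with replicate 2 lowest, at 60.6% of the control level (log2 fold change -0.72, SE 0.159, adjusted p = 0.0119). IFITM2, which lies beside IFITM1 in the cluster on chromosome 11, was below the control in every silenced library but did not pass the test (log2 fold change -0.24, SE 0.0841, adjusted p = 0.0718). BST2, or tetherin, which holds budding viruses at the cell surface, and LY6E, a lipid-anchored protein, had log2 fold changes of -0.15 (adjusted p = 0.412) and -0.088 (adjusted p = 0.393).

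IFI6, a small hydrophobic protein of the endoplasmic reticulum and mitochondria, was the membrane protein that rose, from 21.7 ± 2.52 (SD, n = 3) to 31.3 ± 2.05 (SD, n = 3) CPM (log2 fold change 0.53, SE 0.107, adjusted p = 0.00857). Its relative IFI27 was at no more than 1.93 CPM in any library, with a log2 fold change of 0.46 (SE 0.325, adjusted p = 0.366). PLSCR1, a phospholipid scramblase, had a log2 fold change of 0.06 (adjusted p = 0.735), and RTP4 had 0 counts in all 6 libraries. Of the secreted proteins, LGALS3BP, a galectin-binding glycoprotein, had overlapping groups at 827 ± 50.2 (SD, n = 3) and 877 ± 68.1 (SD, n = 3) CPM (log2 fold change 0.086, SE 0.0791, adjusted p = 0.491). The chemokines, which draw in leukocytes, were below the filter. CXCL10 had 0 to 2 counts and CXCL11 0 to 2 counts per library, and CCL5 had 2, 4 and 1 counts in control and 4, 2 and 12 counts in silenced replicates 1, 2 and 3, which overlap.

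Per length of exon, the control level of the tested members ran from 0.291 CPM per kb in MX2 to 321 CPM per kb in LGALS3BP. The 5 members with the highest control level per kb were LGALS3BP, IFITM3 (253 CPM per kb), BST2 (237 CPM per kb), IFITM2 (94.3 CPM per kb) and LY6E (80.2 CPM per kb). Their log2 fold changes lay between -0.45 and 0.086, and none of them rose by the test. ISG15 was next, and its level per kb went from 55.2 CPM per kb in the control group to 119 CPM per kb in the silenced group. The other members called higher had control levels of 6.92 (ISG20), 3.11 (IFIT2), 1.77 (IFI44) and 0.291 (MX2) CPM per kb. The SE of the log2 fold change was 0.323 in MX2 and 0.0891 in ISG15.

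**Figure D3:**
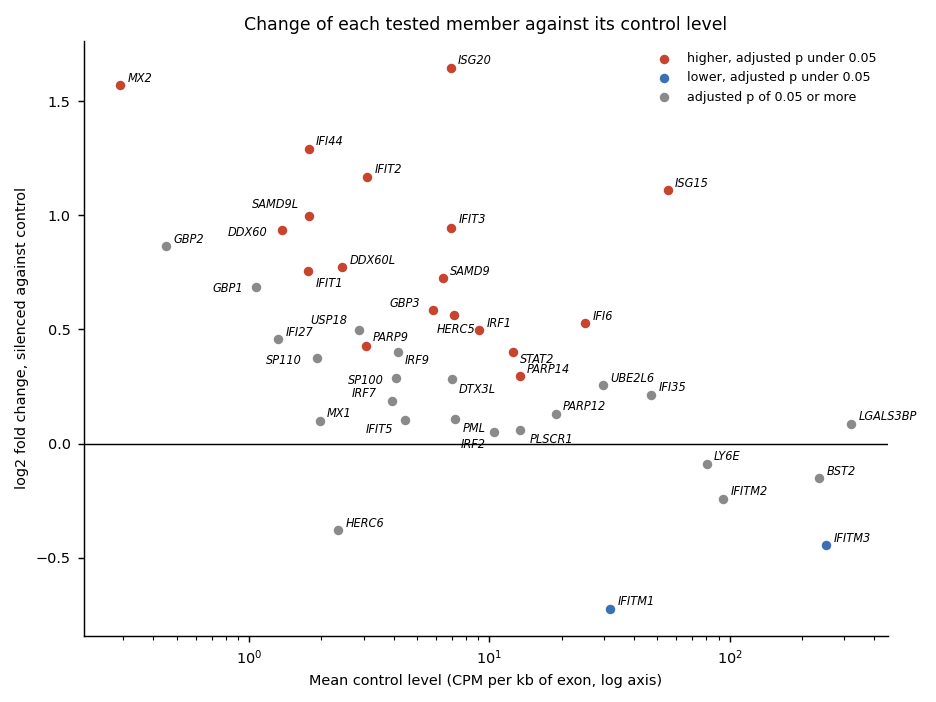
Log2 fold change of each tested member, silenced against control, against its mean control level in CPM per kb of exon on a log axis, coloured by the test. The members above a log2 fold change of 1 lie at control levels from 0.291 to 55.2 CPM per kb, and the 5 members with the highest levels lie between -0.45 and 0.086.

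The transcription factors of the list were at moderate levels and changed by less than 2-fold. STAT2 had the highest level of the 5, at 37.4, 42.6 and 47.8 CPM in control and 54.8, 55.9 and 58.8 CPM in silenced replicates 1, 2 and 3, with no overlap (log2 fold change 0.40, SE 0.0945, adjusted p = 0.0157). IRF1, which activates many of the other members, rose from 34.5 ± 1.92 (SD, n = 3) to 48.7 ± 1.59 (SD, n = 3) CPM (log2 fold change 0.50, SE 0.0801, adjusted p = 0.00266). IRF9, the partner of STAT2, had a like log2 fold change of 0.40, with no overlap of the groups, but a larger SE (0.140), and did not pass the test (adjusted p = 0.0716). IRF7, which drives later interferon production, had a log2 fold change of 0.19 (adjusted p = 0.438), and IRF2, largely a repressor, of 0.051 (adjusted p = 0.739).

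The other genes of the pathway were 42 listed ligands, receptors, kinases, transcription factors and inhibitors, of which 18 had enough counts to be tested. Of these 18, 7 rose and 1 fell, all by less than 2-fold, with a median log2 fold change of 0.23, beside 8.75% of all tested genes that rose and 8.27% that fell. No interferon gene could be tested. Of 21 interferon genes in the table, 19, including IFNB1 and IFNG, had 0 counts in every library, IFNE had 0 to 6 counts and IFNL1 had 1 count in silenced replicate 1.

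Of the 6 receptor subunits tested, 3 rose. Both subunits of the type I receptor did: IFNAR1 was at 31.9, 32.1 and 32.6 CPM in control and 37.98, 43.9 and 41.03 CPM in silenced replicates 1, 2 and 3 (log2 fold change 0.35, SE 0.0844, adjusted p = 0.0180), and IFNAR2 at 17.5, 20.7 and 20.3 and 27.7, 25.1 and 26.9 CPM (log2 fold change 0.44, SE 0.102, adjusted p = 0.0148). The groups did not overlap in either, but IFNAR1 no longer passed without control replicate 2 (adjusted p = 0.0539), and IFNAR2 without silenced replicate 1 (adjusted p = 0.0670). IFNGR1, the ligand-binding subunit of the receptor of interferon gamma, rose as well (log2 fold change 0.55, SE 0.126, adjusted p = 0.0142, or 0.0559 without control replicate 3), while IFNGR2, IFNLR1 and IL10RB had log2 fold changes of 0.18, 0.07 and 0.36 and did not pass. Of the kinases, JAK1 rose from 229 ± 29.98 (SD, n = 3) to 315 ± 11.3 (SD, n = 3) CPM (log2 fold change 0.46, SE 0.0925, adjusted p = 0.00834). TYK2 was at 79.6 ± 3.62 (SD, n = 3) and 73.9 ± 3.87 (SD, n = 3) CPM with overlapping groups (log2 fold change -0.11, SE 0.0768, adjusted p = 0.372), and JAK2 had a log2 fold change of 0.43 (adjusted p = 0.246).

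Of the other transcription factors, STAT3 rose (log2 fold change 0.26, SE 0.0685, adjusted p = 0.0254), and IRF3, which switches on interferon genes after the sensing of nucleic acid, fell (log2 fold change -0.39, SE 0.0847, adjusted p = 0.0111). Of the inhibitors, SOCS3 and PIAS1 rose, by 0.32 (SE 0.0917, adjusted p = 0.0350) and 0.26 (SE 0.0827, adjusted p = 0.0498) on the log2 scale. STAT3 and SOCS3 each no longer passed when any of 5 of the 6 libraries was left out (without control replicate 3 STAT3 still passed, and without silenced replicate 2 SOCS3 did), with adjusted p-values of 0.0562 to 0.0728 and 0.0712 to 0.127. PIAS1 no longer passed with DESeq2 (adjusted p = 0.108), with RLE size factors (adjusted p = 0.0515), with all genes of at least 1 count (adjusted p = 0.0682), or without any of the 3 control libraries or silenced replicates 1 and 2 (adjusted p 0.0901 to 0.151). The phosphatases PTPN2, PTPN6 and PTPN11 and the inhibitor CISH had log2 fold changes between -0.023 and 0.064 and did not pass the test, and SOCS1 was below the filter with 2 to 8 counts per library.

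**Figure D4:**
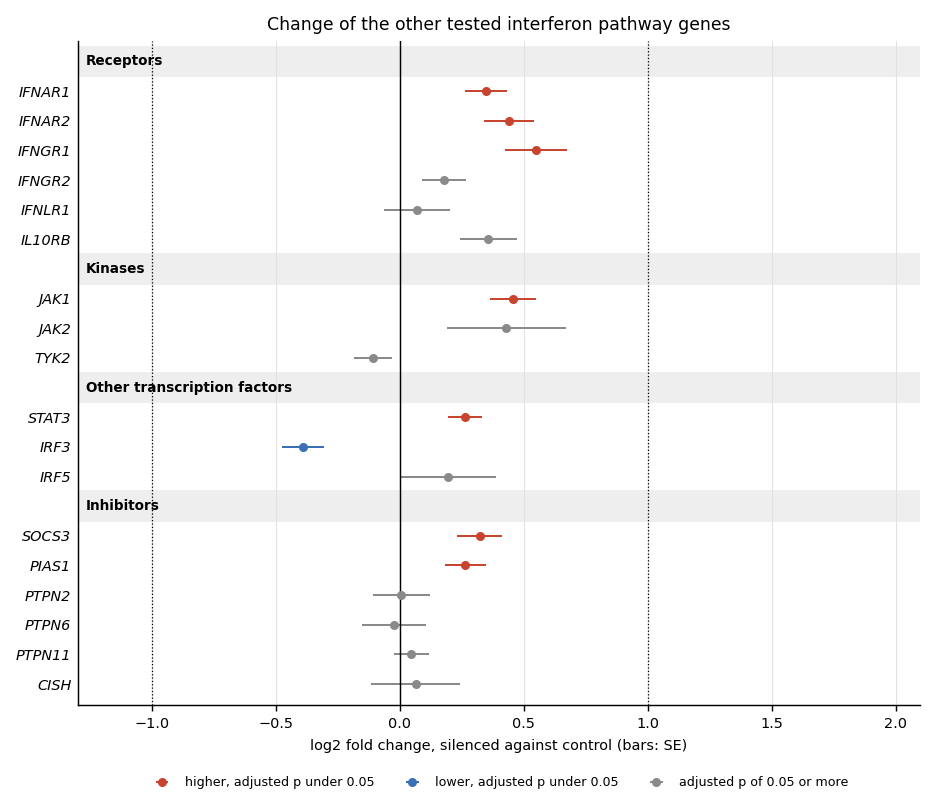
Log2 fold change of the 18 tested genes of the interferon pathway outside the list, silenced against control, with bars for the SE and dotted lines at a 2-fold change. IFNAR1, IFNAR2, IFNGR1, JAK1, STAT3, SOCS3 and PIAS1 are higher and IRF3 is lower at an adjusted p under 0.05, and TYK2 is not.

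Members that lie next to each other on a chromosome did not all change alike in the test. In RefSeq, 15 pairs of members lie within 100 kb of each other. Both genes rose in the pairs of IFIT2 with IFIT3, IFIT3 with IFIT1, DDX60 with DDX60L and SAMD9 with SAMD9L, and both fell in the pair of IFITM1 with IFITM3. In the pairs of MX2 with MX1, IFIT1 with IFIT5, HERC5 with HERC6, PARP9 with DTX3L, and GBP3 with GBP1, a member that rose lay beside a member that did not pass the test, with log2 fold changes of 1.57 and 0.10, 0.76 and 0.10, 0.56 and -0.38, 0.43 and 0.28, and 0.58 and 0.69. In the last pair the gene that did not pass had the larger log2 fold change, with the larger SE. In the pair of IFITM1 with IFITM2, a member that fell lay beside a member that did not pass, at -0.72 and -0.24. Neither gene passed in the pair of GBP1 with GBP2, and the remaining pairs held a gene below the filter. A test of these differences between genes was not run, and the smallest p that an exact permutation of 3 against 3 libraries allows is 0.1.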

How the data were processed

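Libraries were made from total RNA with an Ion Proton RNA-Seq kit, and reads per gene were counted by the authors with MapSplice. The deposited values are whole read counts for 40173 genes listed by symbol, without normalization. The submitters' processing notes name the build GRCh37. The handling of strand and of reads that match several genes is not given in the sources used here. Fold changes, p-values and CPM were computed here from the deposited counts.

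Groups and replicate numbers were taken from the sample labels. Genes were kept by filterByExpr of edgeR 4.0.16 (R 4.3.3), normalized by TMM and tested with the quasi-likelihood fit and F test over 15250 genes, with Benjamini-Hochberg adjustment. The thresholds for a call, an adjusted p under 0.05 with more than a 2-fold change, follow the study's methods. Elsewhere the study gives a stricter adjusted p of 0.01, which was tried as an alternative. The SE of a log2 fold change is its size divided by the square root of F. DESeq2 1.42.0 and other settings served as alternatives. On simulated data with 200 changed genes among 15250, both tools recovered 199 and made 0 false calls. The levels of these 200 genes and the sizes of their changes are not given here. Recovery by level of the gene or by size of its change, such as those of the members, was not tested. Recovery and false results at an adjusted p under 0.05 alone, by which members rose or fell, are not given here either. No pair of replicates agreed within counting noise (chi-square per degree of freedom 3.92 to 26.8). Control replicate 3 gave 26.8 and 22.7 against control replicates 1 and 2, and the other pairs gave 3.92 to 9.47. Intervals from counts cover counting error only.

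Exon lengths came from GENCODE 29 on GRCh38, a build other than that of the counts. Promoters and the order of neighbouring genes came from RefSeq, for which 10 members had no promoter at hand. A gene was taken to hold a motif where any of its promoters did. Figures were drawn with matplotlib 3.10.9.

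The members, the lists of pathway and marker genes, the role groups and the tests were chosen with earlier results of these data known. Named with values were every tested member at an adjusted p under 0.05, in every library where it was called or had the highest mean CPM of its role group, and of the other pathway genes those past the test with JAK1, TYK2, IFNAR1 and IFNAR2. A gene of the pathway list is not reported here. Values of IFITM1 in every library, and members that did not pass, were added.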

Additional observations from a re-analysis of the deposited data

How the results depend on the processing

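The fits were repeated under 13 other settings and with a threshold of 0.01. The 5 members called higher were called under all 13, and no tested member among the 20 past the test changed its direction. With RLE size factors and with DESeq2, 18 members rose and 2 fell. At an adjusted p under 0.01, 15 rose, 5 of them more than 2-fold, and 0 fell by edgeR, where 3 were lower at an unadjusted p under 0.05 and 2 by DESeq2 at an adjusted p under 0.05. Leaving out each library in turn gave 16 to 18 members that rose, 1 to 3 that fell, 5 to 7 called higher and a median log2 fold change of 0.35 to 0.44. The shares of all tested genes past the test at 0.01 and under the other settings are not given here. These counts of members therefore have no background beside them. Of 377 values of single genes under these settings, 344 stayed on the same side of the threshold and 33 no longer passed the adjusted p of 0.05, and those were of IFITM3, PARP9, PARP14, IFNAR1, IFNAR2, IFNGR1, STAT3, SOCS3 and PIAS1. In the other direction, UBE2L6 passed in 5 of the 13 settings, GBP1 and IFITM2 in 3 each, SP100 and DTX3L in 2 each, and IFI35 and USP18 in 1 each. The cause of these shifts was not tested. Where a library was left out, the smaller number of libraries and the values of that library cannot be told apart. MX1 and PLSCR1, which did not pass the test, changed sign without silenced replicate 2. Scaling by library size alone moved the median of all genes to 0.035 and that of the members to 0.44.

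The control and silenced libraries share replicate numbers. Deviations from the group means correlated at r = 0.12, 0.15 and 0.067 for pairs 1, 2 and 3, so that the numbers were not taken to pair the libraries, although each library correlated best with its own number, a hint from the data only. With the replicate number as a block, 21 members rose, 3 fell and 5 were called higher, with a median log2 fold change of 0.41. The 20 members past the test without the block were past it with it. The shares of all tested genes in the fit with the block are not given here, so its counts of members have no background beside them.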
